A study of Mus musculus with 5 samples.

Results

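RNA sequencing of sorted mouse pancreas cells was examined for 10 genes that encode proteins secreted by duct cells or innate defence proteins found in epithelium: Spp1, Clu, Ambp, Wfdc2, Lcn2, Cp, C3, Cd14, Tlr4 and Ly96. They were chosen by symbol, with their levels in these same libraries already known, and all 10 were found among the 16992 gene symbols common to the tables. The study compared 2 populations of pancreas cells, taken straight after sorting from C57BL/6 mice aged 2 to 4 months: CD133(positive)CD71(negative) cells (2 libraries) and CD133(high)CD71(low) cells (3 libraries). Prom1 encodes CD133, a membrane protein of duct and other epithelial cells, and Tfrc encodes CD71, which takes up iron-loaded transferrin. Another label of the CD133(high)CD71(low) samples calls their CD71 plus rather than low. Whether libraries represent different animals or sorts is not in the labels, and p-values therefore reflect the spread among these 5 libraries only, part or all of which may be technical. The series title concerns colony-forming progenitor cells, which it places in the CD133(high)CD71(low) fraction.

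Levels are the deposited values, whose unit was inferred to be RPKM (reads scaled to transcript length and to the total reads of the library), and so can be compared between genes. Unless said otherwise, values after "against" are those of CD133(high)CD71(low) libraries 1, 2 and 3, in that order, and those before it are of CD133(positive)CD71(negative) libraries 1 and 2; a mean ± SD has n = 3 or n = 2 accordingly. Log2 differences take the mean of log2(RPKM + 1) in the former group less that in the latter, and the added 1 makes the change of low genes look smaller. Inferred depth was 19730000 to 41840000 reads per library. CD133(high)CD71(low) library 3, the one without a number in its title, stood apart across all genes. It was deposited with other gene models (22522 symbols, against 18618 in the other 4 tables), and its correlation across genes with libraries 1 and 2 of its own group was 0.957 and 0.961, against 0.996 between those. Acinar enzyme and factor genes took 61.6% and 58.2% of the summed RPKM against 54.1%, 54.6% and 30.6%. Values with and without library 3 are therefore both given where they part. These are bulk samples, in which fewer cells of a type and less RNA per cell cannot be told apart.

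The pancreatic duct is a simple epithelium that carries digestive enzymes to the gut and is open to bacteria from it. Its cells release matrix-binding and protective glycoproteins, among them osteopontin and clusterin, and protease inhibitors. They also carry parts of the innate system that is best known from macrophages. In that system LPS (bacterial lipopolysaccharide) is handed by LPS-binding protein to CD14 and from there to the pair of TLR4 and MD-2 (encoded by Ly96), which signals through adaptors such as MYD88 to NF-kappaB. NF-kappaB, C/EBP and HNF1 are transcription factors with known roles in acute phase genes, and lipocalin 2 and complement C3 are among the proteins whose genes NF-kappaB can raise.

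Promoter sequence in the RefSeq table (GRCm38.p6, the mm10 assembly) was found for 6 of the 10 genes, with 9 entries in all, since Spp1, Wfdc2 and Cp have 2 start sites each. The 250 bases before each start site were searched on both strands for GGG and TCC with any 4 bases between them (NF-kappaB), TTGC and AA with any 2 bases between them (C/EBP), and GTTAAT and ATT with any 1 base between them (HNF1). The first was found in 2 of the 9 (Lcn2 and C3), against 16.5% of 32851 promoters in the table. The second was found in 4 of the 9 (Lcn2, C3 and 1 start site each of Spp1 and Cp), against 9.56%. The third was found in 1 of the 9 (Cp), against 0.371%. The matches did not overlap one another, entries of the same gene can share bases, and a match is a description of letters and not a binding site. The stretches shown are those of the 3 genes that hold an NF-kappaB or HNF1 match, with each matched motif in capitals, and they lie in no annotated exon.
C3 (chr17:57228137-57228386, minus strand): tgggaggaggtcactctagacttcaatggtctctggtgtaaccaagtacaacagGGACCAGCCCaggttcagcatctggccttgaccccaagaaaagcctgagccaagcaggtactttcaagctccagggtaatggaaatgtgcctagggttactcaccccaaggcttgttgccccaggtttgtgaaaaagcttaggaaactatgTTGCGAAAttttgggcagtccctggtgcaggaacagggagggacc
Lcn2 (chr2:32387798-32387850, minus strand): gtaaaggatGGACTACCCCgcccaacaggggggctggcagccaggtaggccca
Cp (chr3:19956804-19957053, plus strand): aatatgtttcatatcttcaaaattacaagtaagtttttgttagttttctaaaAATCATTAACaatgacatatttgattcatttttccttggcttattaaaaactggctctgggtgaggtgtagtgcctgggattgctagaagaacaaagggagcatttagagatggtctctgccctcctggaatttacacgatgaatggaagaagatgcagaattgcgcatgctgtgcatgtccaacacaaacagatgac
In C3 the NF-kappaB match begins 196 bases and the C/EBP match 45 bases before the start site. In Lcn2 the NF-kappaB match begins 102 bases before it, and a C/EBP match at 216 bases lies in an exon of another transcript and is not shown. The HNF1 match of Cp begins 198 bases before the first of its start sites.

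Of the 10 genes, 9 were higher in every CD133(high)CD71(low) library than in either CD133(positive)CD71(negative) library, and Ly96 alone had overlapping groups. The same holds for 58.2% of all genes tested, while 12% lay lower in every CD133(high)CD71(low) library. Of the 10 genes, 5 passed limma as higher and 0 as lower, against 6.25% of the 11769 tested genes that were called higher and 7.22% that were called lower. Since the genes were chosen on this contrast, nothing is read from these counts, and the differences of the 10 genes are given below as descriptions without a test. Their median log2 difference was 0.71, beside 0.81 for a list of 21 tested duct genes and 0.31 for all genes tested. Ratios of means lay between 1.51 and 2.84 for the 9 genes that were higher.

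**Figure D1:**
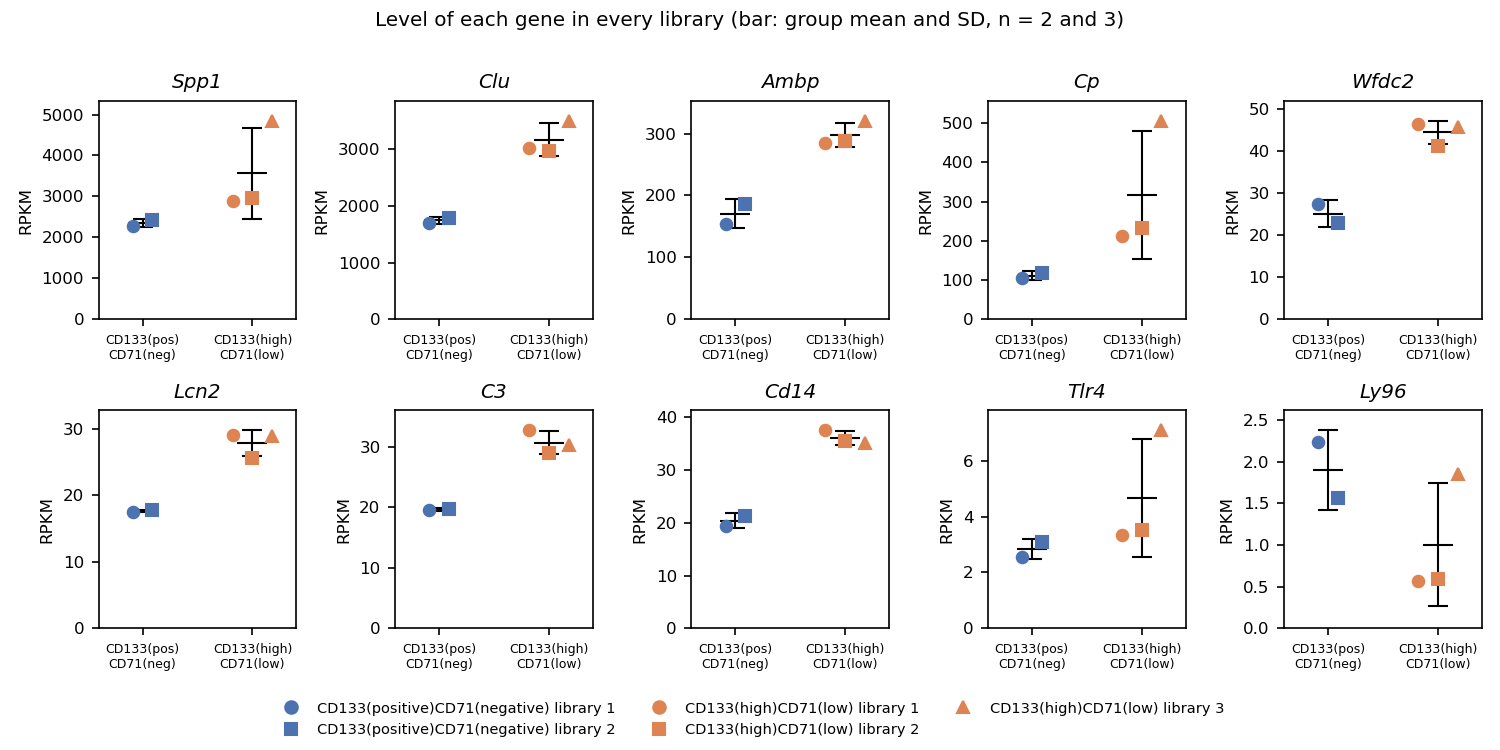
RPKM (vertical axes, each from 0) of the 10 genes in every library, with the group mean and SD as bars (n = 2 and 3); circles, squares and triangles are libraries 1, 2 and 3. In every panel but that of Ly96 all 3 CD133(high)CD71(low) libraries lie above both others. Library 3 is far above libraries 1 and 2 of its group for Ly96, Cp, Tlr4 and Spp1, most so in ratio for Ly96.

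Osteopontin and clusterin transcripts were far above those of the other secreted proteins. Spp1 (chromosome 5, 104435118 to 104441050), encoding osteopontin, a secreted phosphoprotein that binds integrins and CD44, measured 2286 and 2425 against 2895, 2963 and 4846. Clu (chromosome 14, 65968483 to 65981547), encoding clusterin, an extracellular chaperone that also restrains the end stage of complement, measured 1704 and 1793 against 3019, 2973 and 3497. The groups did not overlap for either gene, but the step between groups was small for Spp1 unless library 3 was counted: its log2 difference was 0.56 (SE 0.31) with library 3 and 0.31 without it, whereas that of Clu was 0.85 (SE 0.21) and 0.78. Together both genes made up 89.5% to 92.0% of the summed level of the 10 genes in every library, and 0.752% and 0.839% of the RPKM of all common genes in CD133(positive)CD71(negative) against 1.18%, 1.18% and 1.95% in CD133(high)CD71(low). Their order was not fixed. The ratio of Spp1 to Clu was 1.34 and 1.35 against 0.959, 0.997 and 1.39, so Clu was the higher in CD133(high)CD71(low) libraries 1 and 2 alone. Set against the duct keratin gene Krt19, whose level was 74.6 and 81.4 against 156, 142 and 149, Spp1 had a ratio of 30.6 and 29.8 against 18.6, 20.9 and 32.5. For Clu the ratio was steadier, at 22.8 and 22.0 against 19.4, 20.9 and 23.4. A gene model, Gm42793, overlaps Spp1 on the same strand, and reads they share cannot be told apart.

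Next in level came Ambp and Cp, both better known as plasma proteins of the liver. Ambp (chromosome 4, 63143275 to 63154799) encodes a precursor that is split into the lipocalin alpha-1-microglobulin and the protease inhibitor bikunin. It measured 154 and 187 against 284, 288 and 320, a log2 difference of 0.80 (SE 0.15), and its CD133(high)CD71(low) libraries were close together. Cp (chromosome 3, 19957054 to 20009145) encodes ceruloplasmin, a copper-carrying ferroxidase that oxidises iron leaving the cell. It measured 104 and 119 against 213, 233 and 506. Library 3 held 2.27 times the mean of libraries 1 and 2, and the group means were 112 ± 10.4 and 317 ± 163, or 223 for libraries 1 and 2 alone. The log2 difference of Cp was the largest of the 10 genes, at 1.39 (SE 0.40) with library 3 and 0.99 without it. With library 3, 99.9% of the tested genes lay below Cp, on the contrast with which Cp was chosen. That share was not computed without library 3. The gene Hps3 overlaps Cp on the opposite strand, and the labels do not say whether strand was used in counting. Hps3 was listed at 4.48 and 6.02 against 3.56, 4.20 and 6.99, with overlapping groups. Cp and Ambp traded places between libraries: Ambp was the higher in every library but library 3.

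Hepatocytes also make both proteins, and C3 as well. Of a list of 16 hepatocyte genes 11 were in the tables, and 10 of these were below 1 in every library, with a summed level of 0.839 and 1.17 in CD133(positive)CD71(negative) and 0.792 to 1.05 in CD133(high)CD71(low). Of the 11, only the albumin gene Alb was above this, at 10.8 and 10.4 against 19.4, 19.0 and 34.0. The apolipoprotein gene Apoa1 was at or below 0.199 and the fetuin gene Ahsg at or below 0.274 in every library. Acute phase genes outside that list differed in level. Crp was at 29.4 and 31.3 against 40.0, 38.2 and 74.6, and Apcs at 9.64 and 9.12 against 12.8, 14.1 and 24.3. The haptoglobin gene Hp was at 1.60 and 1.46 against 0.163, 0.120 and 0.249. The part of hepatocyte transcripts in the levels of Ambp, Cp and C3 was not tested.

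Wfdc2 and Lcn2, a pair of small secreted defence proteins, were at moderate levels that differed little within a group. Wfdc2 (chromosome 2, 164562413 to 164568510) encodes a secreted protein with WAP domains, the cysteine-rich fold of several epithelial protease inhibitors. It measured 27.4 and 22.9 against 46.5, 41.4 and 45.8 (log2 difference 0.80, SE 0.13). Lcn2 (chromosome 2, 32384633 to 32388252) encodes lipocalin 2, which withholds iron from bacteria by binding their siderophores. It measured 17.6 and 17.8 against 29.1, 25.6 and 28.9 (log2 difference 0.63, SE 0.12). For neither gene did library 3 stand out, at 1.04 and 1.06 times the mean of libraries 1 and 2. Lipocalin 2 is also stored in neutrophil granules. Of 14 neutrophil markers 9 were in the tables, with a summed level of 41.2 and 34.9 in CD133(positive)CD71(negative) and 0.444, 1.29 and 0.482 in CD133(high)CD71(low), where each of the 9 was below 1 in every library. Camp, encoding the granule peptide cathelicidin, and Ngp, another granule gene, were at 0 in 2 of the 3 CD133(high)CD71(low) libraries and at 0.054 and 0.056 in library 2. The part of neutrophil transcripts in the level of Lcn2 was not tested. Mesothelium is another tissue in which Wfdc2 and C3 can be found. Of 11 mesothelial markers 9 were in the tables and 6 of these were below 1 in every library; the sum was 7.41 and 8.25 against 4.25, 5.13 and 4.30. Wt1 was at 0 in CD133(high)CD71(low) libraries 1 and 2 and at 0.020 in library 3, Msln was at 0.519 and 0.548 against 0.517, 0.720 and 0.135, and Upk3b was at 0.462 and 0.693 against 1.23, 1.50 and 0.762. The part of these mesothelial transcripts in the levels of Wfdc2 and C3 was not tested.

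C3 and Cd14 were nearly equal in level and close within each group. C3 (chromosome 17, 57203970 to 57228136) encodes the protein on which all routes of complement activation converge. It measured 19.5 and 19.8 against 32.8, 28.9 and 30.3, a log2 difference of 0.62 (SE 0.11), and the microRNA gene Mir6978 lies within it on the same strand. Cd14, on chromosome 18, encodes the surface and secreted coreceptor that takes up LPS. It measured 19.4 and 21.3 against 37.6, 35.5 and 35.2, a log2 difference of 0.80 (SE 0.11). Cd14 was the higher of the pair in every library but CD133(positive)CD71(negative) library 1, where C3 was at 19.5 and Cd14 at 19.4.

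The receptor pair that CD14 serves was expressed at far lower levels and did not move together. Tlr4 (chromosome 4, 66827584 to 66930284), encoding the LPS receptor, measured 2.57 and 3.08 against 3.35, 3.51 and 7.10. CD133(high)CD71(low) libraries 1 and 2 were barely above the others, and library 3 was at 2.07 times their mean. Its log2 difference was 0.51 (SE 0.30) with library 3 and 0.22 without it, where the median of all genes was 0.20. Ly96 (chromosome 1, 16688051 to 16709611), encoding MD-2, the subunit of the receptor that holds the lipid, measured 2.24 and 1.56 against 0.570, 0.591 and 1.86. CD133(high)CD71(low) libraries 1 and 2 were at 0.305 times the CD133(positive)CD71(negative) mean, while library 3 lay between the CD133(positive)CD71(negative) libraries. The log2 difference of Ly96 was -0.58 (SE 0.31) with library 3 and -0.87 without it. The levels of Ly96 rest on few reads. With the inferred depth and a transcript of 632 bases, Ly96 had about 36 and 19 reads against 11, 11 and 49. Tlr4, with 4077 bases, had more, at about 266 and 248 against 435, 439 and 1212. Within a library there was 0.873 and 0.507 as much Ly96 as Tlr4 in CD133(positive)CD71(negative), and 0.170, 0.168 and 0.262 as much in CD133(high)CD71(low), so on this ratio library 3 fell with its group. Cd14 exceeded Tlr4 by 7.53 and 6.93 times in CD133(positive)CD71(negative) and by 11.2, 10.1 and 4.95 times in CD133(high)CD71(low).

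Apart from these exchanges the order of levels was the same in all 5 libraries. Spp1 and Clu were followed by Ambp and Cp, then Wfdc2, then C3 and Cd14, then Lcn2, Tlr4 and Ly96. Spp1 and Clu were among the 24 highest of the common genes in every library, and Tlr4 lay above only 18.5% to 39.0% of the tested genes. Library 3 exceeded the mean of libraries 1 and 2 by 1.23 times in the median tested gene. Against this, the ratio was 3.20 for Ly96, 2.27 for Cp, 2.07 for Tlr4 and 1.65 for Spp1, and between 0.962 and 1.17 for the other 6 genes. The genes whose centred profile over the 5 libraries was most like that of a member, by root mean square difference in log2 among 7401 candidates, were Mtfr1 (0.0099) and Zfp259 (0.013) for Spp1, Kcnk5 (0.016) and Adamts15 (0.029) for Clu, Wnk2 (0.031) and Arhgef10l (0.032) for Ambp, and Ap1m2 (0.065) and Klc3 (0.074) for Wfdc2. They were Hspb11 and Acads (both 0.039) for Lcn2, Ccdc94 (0.027) and Prosapip1 (0.029) for C3, Osgin1 (0.018) for Cd14, and Taf1 and Gsk3b (both 0.014) for Tlr4. The nearest to Ly96 were Azin1 (0.10) and Mcf2l (0.14) and the nearest to Cp were Ptgfr (0.10) and Fgfr2 (0.12), all less close.

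Scaling set the size of these differences but not their direction. Under median-of-ratios scaling, which took the median of all genes from 0.31 to 0.06, the log2 difference was 1.09 for Cp, 0.56 for Clu, 0.52 for Wfdc2, 0.51 for Cd14 and for Ambp, 0.34 for Lcn2, 0.33 for C3, 0.27 for Tlr4, 0.26 for Spp1 and -0.77 for Ly96. With this scaling and without library 3 the median of all genes was 0.03, and Spp1 and Tlr4 came near it, at 0.12 and 0.07, while Clu, Ambp, Wfdc2 and Cd14 lay between 0.55 and 0.63. The log2 difference was above 0 for the 9 other genes and below 0 for Ly96 in every setting in which the gene was tested.

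The number of calls over all genes depended on the libraries, and each list's counts are to be read beside it. Of 11695 genes tested without CD133(high)CD71(low) library 3, 40.9% rose and 12.2% fell. Without CD133(positive)CD71(negative) library 1, 0% rose and 1.34% fell, and without its library 2, 0.00855% and 1.32%. The shares were 0.753% and 6.63% without CD133(high)CD71(low) library 1, and 0.338% and 4.75% without its library 2.

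Leukocyte genes went the other way by a far larger step. Of 28 tested members of a leukocyte list 27 fell and 0 rose, against 7.22% and 6.25% of all genes, with a median log2 difference of -3.18. The list was chosen with the fall of leukocyte genes in these libraries known, so the counts and p-values here only describe that fall. The lysosomal gene Laptm5 fell from 39.8 ± 0.47 to 1.31 ± 0.20 (log2 difference -4.15, limma adjusted p = 0.00039), the protease gene Ctss from 39.7 ± 3.74 to 0.891 ± 0.31 (limma adjusted p = 0.00042) and the MHC class II gene H2-Eb1 from 188 ± 1.88 to 4.33 ± 1.13 (limma adjusted p = 0.00042). Csf1r did not pass, at 20.6 and 19.4 against 15.9, 14.9 and 13.9. The summed leukocyte level was 2022 and 2005 against 105, 91.7 and 56.1, a ratio of means of 23.9. Macrophages carry CD14, TLR4, MD-2 and C3 as well. The ratio of Cd14 to Laptm5 was 0.482 and 0.540 against 25.3, 26.3 and 32.1. Laptm5 was named for its small adjusted p and Cd14 was chosen with its level known, so nothing is read from this ratio. The summed duct list, by contrast, was 1499 and 1636 against 2660, 2597 and 2922, higher in the same libraries as the 9 genes. The share of each cell type in the levels of Cd14, Tlr4, Ly96 and C3 was not tested.

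**Figure D2:**
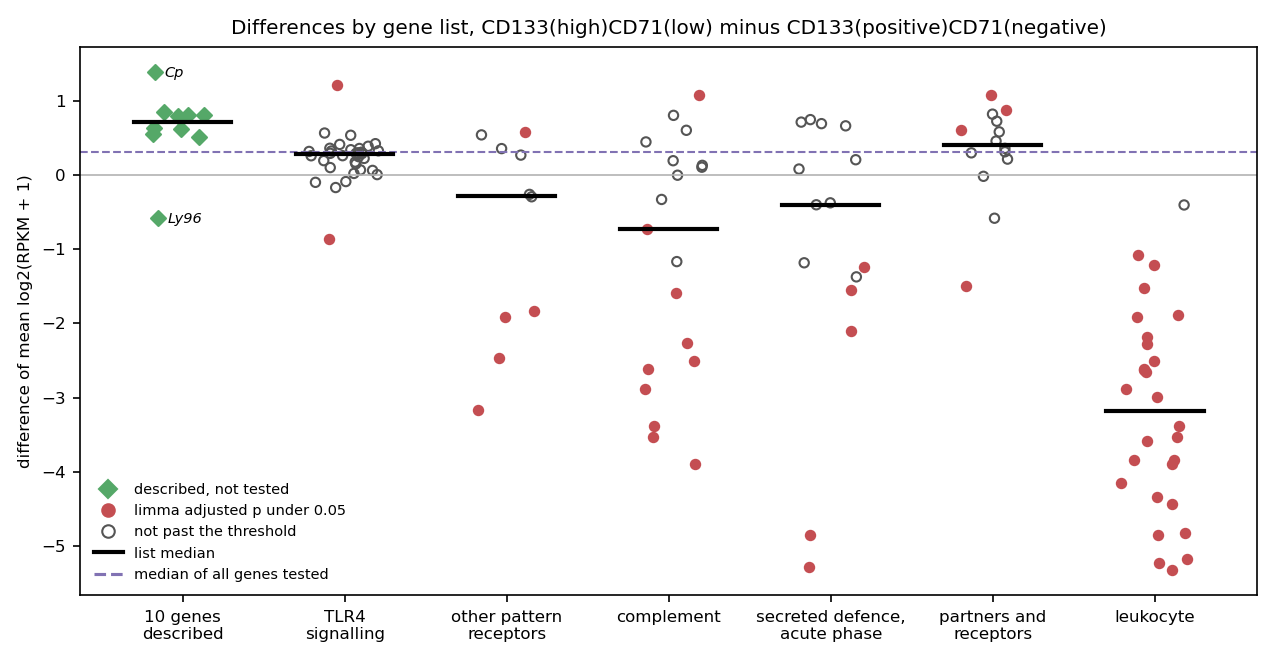
Mean log2(RPKM + 1) in CD133(high)CD71(low) less that in CD133(positive)CD71(negative) (vertical axis), for the 10 genes (green diamonds, not tested) and for the tested members of 6 lists (filled red circles past a limma adjusted p of 0.05, open circles not); black lines are list medians and the dashed line is the median of all genes tested, 0.31. The 10 genes have a median of 0.71 with Ly96 alone below 0, and the leukocyte list has a median of -3.18.

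**Figure D3:**
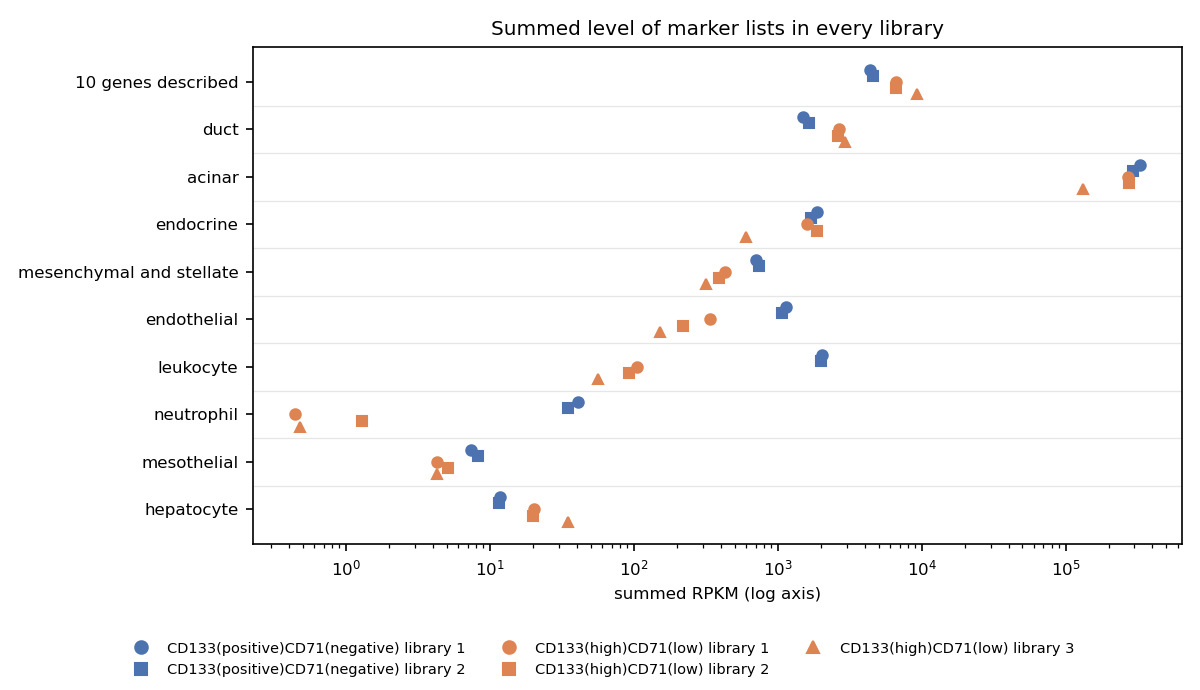
Summed RPKM (log axis) of the 10 genes and of 9 marker lists in every library. The 10 genes and the duct list are higher in CD133(high)CD71(low), the leukocyte and neutrophil lists are lower by more than an order of magnitude, and the acinar and endocrine sums are lowest in library 3.

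For the TLR4 route the list held 35 genes for LPS delivery, adaptors, kinases, NF-kappaB subunits and inhibitors and receptor folding. Of 33 tested genes 1 rose and 1 fell, against 6.25% and 7.22% of all genes, with a median log2 difference of 0.29 beside 0.31 for all genes. Lbp, encoding LPS-binding protein, rose from 3.06 and 3.41 to 9.12, 8.33 and 9.02 (log2 difference 1.21, SE 0.12, limma adjusted p = 0.004). Irak3, encoding a kinase-like inhibitor of the pathway typical of macrophages, fell from 2.14 and 1.54 to 0.652, 0.633 and 0.381 (log2 difference -0.87, limma adjusted p = 0.023). The adaptor gene Myd88 was at 7.90 and 8.84 against 8.45, 7.07 and 7.91, with overlapping groups. The NF-kappaB gene Rela was at 32.4 and 33.7 against 45.2, 44.0 and 38.8 and the inhibitor gene Nfkbia at 33.8 and 34.2 against 32.6, 33.4 and 29.3, and neither passed. Below the filter were Rel, an NF-kappaB subunit of lymphoid and myeloid cells (0.986 and 0.917 against 0.036, 0.125 and 0.111), and the adaptor gene Ticam2. Without CD133(high)CD71(low) library 3, 9 of the 33 rose and 1 fell, against 40.9% and 12.2% of all genes. The call of Lbp was lost without CD133(positive)CD71(negative) library 1 or 2 (limma adjusted p = 0.11 or 0.083) and that of Irak3 without CD133(high)CD71(low) library 1 or 2 (limma adjusted p = 0.052 or 0.077). Irak3 was below the filter without CD133(positive)CD71(negative) library 1 or 2.

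Of 10 tested genes for other pattern receptors 1 rose and 4 fell, against 6.25% and 7.22% of all genes, with a median log2 difference of -0.28 beside 0.31. Tlr5, encoding the flagellin receptor, rose from 2.40 and 2.44 to 4.14, 4.03 and 4.16 (log2 difference 0.58, limma adjusted p = 0.029). CD180 and MD-1 form a pair on B cells and macrophages that resembles TLR4 with MD-2. The gene Cd180 fell from 3.30 and 3.40 to 0.188, 0.181 and 0.310 (limma adjusted p = 0.0007) and Ly86, encoding MD-1, from 9.83 and 10.8 to 0.188, 0.520 and 0.096 (limma adjusted p = 0.00058). Clec7a, a receptor for fungal glucans on phagocytes, fell from 4.56 and 5.29 to 0.027, 0.128 and 0.042 (limma adjusted p = 0.00048). The other gene that fell, Mrc1, encoding a mannose receptor, is the only one of the 4 that is also in the leukocyte list. Tlr2 was at 4.35 and 4.17 against 3.09, 3.17 and 3.95 and Tlr3 at 7.04 and 7.33 against 6.94, 8.31 and 14.5, and neither passed. A further 14 receptor genes in the tables were below the filter, among them Tlr9, at 2.18 and 1.70 against 0.126, 0.131 and 0.062. Without CD133(high)CD71(low) library 3, 1 gene of the list rose and 8 fell, against 40.9% and 12.2% of all genes, and without CD133(positive)CD71(negative) library 2, 2 fell. The call of Tlr5 was lost under median-of-ratios scaling (limma adjusted p = 0.12), with acinar genes removed (0.13) and without CD133(positive)CD71(negative) library 1 or 2 (0.31 or 0.23) or CD133(high)CD71(low) library 1 or 2 (0.11 or 0.12).

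Of 19 tested complement genes 1 rose and 9 fell, against 6.25% and 7.22% of all genes, with a median log2 difference of -0.72 beside 0.31. Masp1, encoding a protease of the lectin route, rose from 0.684 and 1.12 to 3.30, 2.62 and 3.05 (log2 difference 1.08, limma adjusted p = 0.012). Genes of the alternative route measured 2.91 and 2.99 against 4.46, 3.49 and 5.34 (Cfb, factor B) and 0.832 and 1.22 against 1.67, 1.94 and 2.63 (Cfi, factor I, which inactivates C3b). Every CD133(high)CD71(low) library was the higher for both genes, and neither passed. Those that fell included all 3 chains of C1q, the recognition part of the first component (C1qa, C1qb and C1qc). C1qa fell from 32.3 and 38.4 to 3.15, 2.78 and 1.70 (limma adjusted p = 0.00081) and Cfp, encoding properdin, from 13.5 and 14.5 to 2.66, 1.87 and 1.91 (limma adjusted p = 0.00104). So did the chains of the leukocyte receptors for C3 fragments, Itgam (6.19 and 5.97 to 0.240, 0.166 and 0.077, limma adjusted p = 0.00047), Itgax (5.44 and 4.77 to 0.047, 0.072 and 0.083, limma adjusted p = 0.00047) and Itgb2 (12.3 and 12.5 to 1.00, 0.849 and 0.585, limma adjusted p = 0.00051). C4b, encoding the component C4 of the classical and lectin routes, fell from 5.34 and 5.16 to 2.56, 2.58 and 3.24 (limma adjusted p = 0.027). Serping1, encoding the inhibitor of C1, fell from 7.58 and 6.15 to 2.51, 1.82 and 0.765 (limma adjusted p = 0.028). Of the 9 that fell, 6 are also in the leukocyte list, which C4b, Cfp and Serping1 are not. Without the 6 genes shared with that list, the median of the other 13 tested genes was 0.10. C3ar1, encoding the receptor for the fragment C3a, was below the filter, at 1.29 and 1.83 against 0.065, 0.030 and 0.017. Among membrane regulators, which guard cells against complement, Cd55 and Cd46 were below the filter. Cd55 was at 0.931 and 1.02 against 0.359, 0.256 and 0.330, lower in every CD133(high)CD71(low) library, and Cd46 was at 0.226 and 0.208 against 0.077, 0.294 and 0.799, with overlapping groups. Cr1l, another regulator of C3, did not pass, at 20.3 and 20.3 against 20.2, 20.1 and 25.9. Cd59a, which acts on the end stage, did not pass either, at 9.22 and 10.5 against 8.55, 9.50 and 11.7. Without CD133(high)CD71(low) library 3, 3 rose and 10 fell, against 40.9% and 12.2% of all genes. The call of Masp1 was lost without CD133(positive)CD71(negative) library 1 or 2 (limma adjusted p = 0.18 or 0.10).

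**Figure D4:**
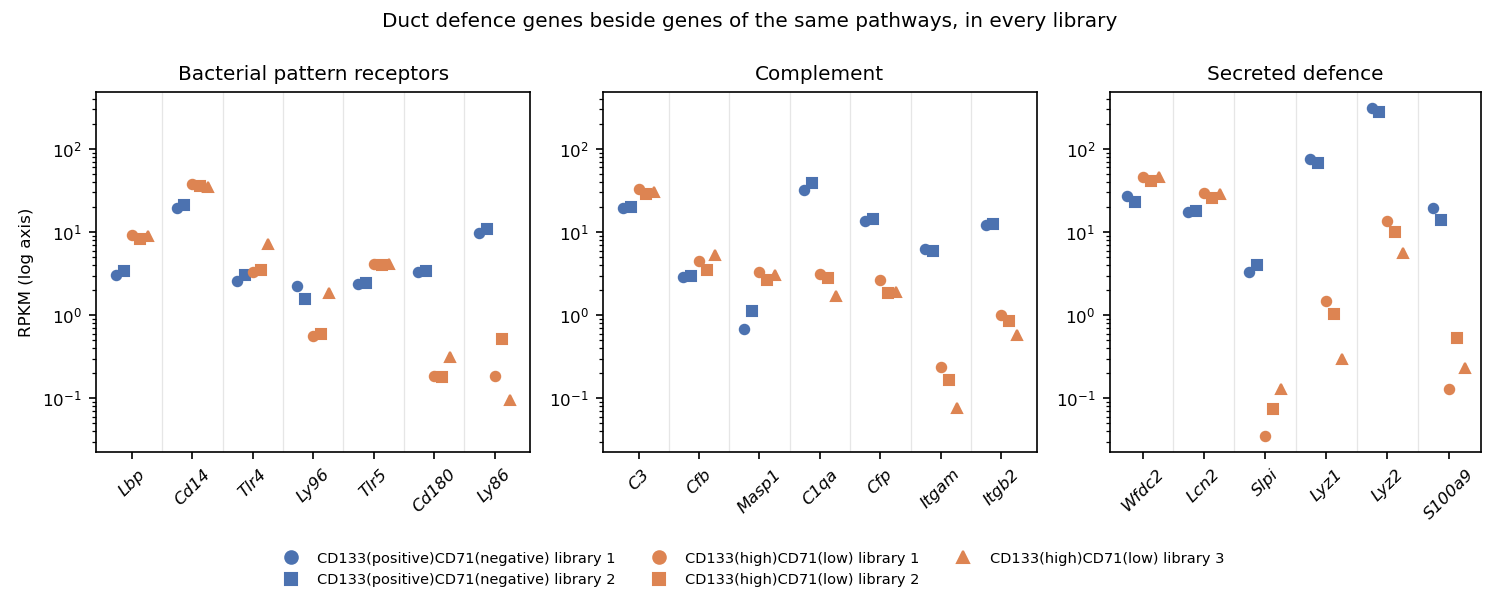
RPKM (log axis) in every library of bacterial pattern receptor genes, complement genes and secreted defence genes. Cd14, C3, Wfdc2 and Lcn2 lie higher in CD133(high)CD71(low), as do Lbp, Tlr5 and Masp1, while Cd180, Ly86, C1qa, Cfp, Itgam, Itgb2, Slpi, Lyz1, Lyz2 and S100a9 lie lower, and the groups of Ly96 overlap through library 3.

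Of 15 tested genes for other secreted defence and acute phase proteins 0 rose and 5 fell in limma, against 6.25% and 7.22% of all genes, with a median log2 difference of -0.40 beside 0.31. The lysozyme genes Lyz1 (75.7 and 68.0 to 1.50, 1.03 and 0.298, limma adjusted p = 0.00057) and Lyz2 (308 and 281 to 13.6, 10.1 and 5.58, limma adjusted p = 0.000997) fell; they are similar in sequence, so how reads were split between them is uncertain. Slpi, a WAP protein like that of Wfdc2, fell from 3.31 and 3.97 to 0.036, 0.074 and 0.128 (limma adjusted p = 0.00061). The WAP gene Wfdc1 and the MHC class I light chain gene B2m also fell, and B2m was still at 138, 135 and 127 in CD133(high)CD71(low), against 314 and 320. Among those that did not pass were the immunoglobulin transporter gene Pigr (89.6 and 94.9 against 134, 132 and 196), Wfdc15b (34.3 and 27.6 against 42.1, 48.6 and 62.2) and the scavenger glycoprotein gene Dmbt1 (570 and 542 against 470, 485 and 343). The antibacterial lectin genes Reg3a and Reg3b, which acinar cells also make, were far lower in library 3 than elsewhere: Reg3b was at 47.3 and 47.3 against 38.8, 46.5 and 4.08. The acute phase genes of this list did not go one way. Crp was at 29.4 and 31.3 against 40.0, 38.2 and 74.6, and Apcs at 9.64 and 9.12 against 12.8, 14.1 and 24.3. Both were higher in every CD133(high)CD71(low) library, and neither passed. The haptoglobin gene Hp and the acute phase gene Saa3 were below the filter. Hp was at 1.60 and 1.46 against 0.163, 0.120 and 0.249, and Saa3 was at or below 0.222 in every library. Without CD133(high)CD71(low) library 3, 4 rose and 7 fell, against 40.9% and 12.2% of all genes. Without CD133(positive)CD71(negative) library 1 or 2, 3 or 2 fell, against 1.34% or 1.32% of all genes. At an unadjusted limma p under 0.05, 3 of the 15 were higher and 5 lower. The share of all genes at that threshold was not computed, so nothing is read from these counts.

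Of 14 tested genes for partners of the secreted proteins 3 rose and 1 fell, against 6.25% and 7.22% of all genes, with a median log2 difference of 0.41 beside 0.31. Mmp7, encoding matrilysin, a protease that can cleave osteopontin, rose from 2.86 and 2.53 to 6.65, 5.68 and 8.23 (log2 difference 1.08, limma adjusted p = 0.017). The osteopontin-binding integrin genes of the list went different ways. Itga9 (16.4 and 17.0 to 27.4, 28.8 and 38.8, limma adjusted p = 0.034) and Itgb5 (18.7 and 21.9 to 31.1, 28.9 and 34.6, limma adjusted p = 0.043) also rose. Itgav and Itgb1 did not pass. Itgb3 (1.03 and 1.05 against 0.173, 0.196 and 0.115) and Itga4 (2.02 and 2.22 against 0.139, 0.121 and 0.048) were below the filter. Both were lower in every CD133(high)CD71(low) library. Hmox1, encoding heme oxygenase, fell from 5.40 and 5.66 to 1.74, 1.36 and 0.906 (log2 difference -1.50, limma adjusted p = 0.0072). The osteopontin receptor gene Cd44 was at 10.2 and 10.3 against 8.08, 8.02 and 15.5 and did not pass. Slc40a1, encoding the iron exporter ferroportin with which ceruloplasmin works, was at 4.58 and 4.56 against 7.36, 7.41 and 12.5 and did not pass either. The heavy chain genes Itih1 and Itih3, whose products bind bikunin, were below the filter, and Itih2 was at 2.44 and 2.52 against 2.54, 3.48 and 4.58. Without CD133(high)CD71(low) library 3, 8 rose and 3 fell, against 40.9% and 12.2% of all genes. The number that rose was 0 without CD133(positive)CD71(negative) library 1 or 2 or CD133(high)CD71(low) library 1, and 1 without CD133(high)CD71(low) library 2. The call of Itgb5 was also lost under median-of-ratios scaling (limma adjusted p = 0.11), with acinar genes removed (0.13) and with a minimum mean of 5 (0.051). Hmox1 was lost without CD133(positive)CD71(negative) library 1 or 2 (limma adjusted p = 0.13 or 0.12).

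The sorting markers themselves were Prom1, at 45.8 and 48.8 against 72.8, 74.7 and 133, and Tfrc, at 4.00 and 4.36 against 5.34, 6.84 and 12.2. Neither passed over all 5 libraries (limma adjusted p = 0.091 for Prom1 and 0.15 for Tfrc). Library 3 was the highest for both, as it was for Spp1, Clu, Ambp, Cp and Tlr4.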

How the data were processed

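The tables give 1 value per gene symbol and library. The deposited values hold no unit in the labels; they were taken as RPKM made by the authors, because low values fall on steps that scale with transcript length. Partek and the mm10 build are named per the submitters' processing notes; for the aligner, annotation and strand setting, the entry is: not given in the sources used here. A row naming no gene in library 3 was left out. Depth was inferred from the steps. Between 51.4% and 63.1% of low values fell within 0.05 reads of a whole number, where chance gives 10%, which is too few to recover counts.

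From these values, log2(RPKM + 1) was computed for the 16992 common symbols, and the 11769 whose mean over 5 libraries reached 1 were tested with limma 3.58.1 (R 4.3.3, with an intensity trend, 2-sided) between the groups, with no covariate and Benjamini-Hochberg adjustment over all of them at 0.05. SDs and ratios were computed with pandas 2.3.3. A permutation of 2 against 3 libraries cannot give a 2-sided p below 0.2, so none is given for single genes. Tested on simulated data for this comparison with 11769 genes, the share recovered was 50% for genes changed by 1 on the log2 scale. It was 87% for genes changed by 2, and 4.20% of calls were false. The simulation drew independent noise for each gene and library and changed few genes. It held no library that stood apart and no shift over most genes, so these shares need not hold for the real libraries. Coordinates and overlaps are from GENCODE M21 (mm10).

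The members and gene lists were chosen with earlier results of these data known. Named genes are the 10 members, in each list up to 3 risen and 3 fallen genes with the smallest adjusted p, the 2 nearest profiles per member (1 of them is not reported here), Prom1 and Tfrc; any further gene was picked with its values in view. Alternatives were another pseudocount (0.1), median-of-ratios scaling, no filter, a minimum mean of 5, removal of acinar genes, a replicate block, the 4 numbered libraries alone and each library left out.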

Additional observations from a re-analysis of the deposited data

How the results depend on the processing

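Of the alternatives run, none changed the sign of a member or of a named list gene. The log2 difference ranged from 0.80 to 1.62 for Cp, 0.56 to 0.89 for Clu, 0.51 to 0.94 for Ambp, 0.52 to 0.93 for Wfdc2, 0.51 to 0.86 for Cd14, 0.34 to 0.68 for Lcn2, 0.33 to 0.66 for C3, 0.12 to 0.69 for Spp1, 0.07 to 0.66 for Tlr4 and -1.03 to -0.41 for Ly96. With a mean of at least 5, Ly96 and Tlr4 were not tested. The median over the members was 0.80 with a mean of at least 5, 0.43 under median-of-ratios scaling, 0.45 with acinar genes removed, 0.50 and 0.54 with the 4 numbered libraries under those scalings, and 0.64 to 0.75 with 1 library left out. The cause of these shifts was not tested. Where 1 library is left in a group, it is assumed to vary like the other group.

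Counts moved with the choice of libraries. Of all genes, 735 rose and 850 fell. With 1 library left out 0 to 4785 rose and 154 to 1425 fell. Leaving out either CD133(positive)CD71(negative) library gave the low ends, and leaving out CD133(high)CD71(low) library 3 gave the high ends. The ranges with 1 library left out were, for the TLR4 list, 0 to 9 risen and 0 to 1 fallen; for other receptors, 0 to 1 and 2 to 8; for complement, 0 to 3 and 6 to 10; for secreted defence, 0 to 4 and 2 to 7; for partners, 0 to 8 and 0 to 3; and for leukocyte genes, 0 and 21 to 29.

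With the 4 numbered libraries and their own tables, 4780 genes rose (40.2% of those tested) and 1431 fell (12%). In the lists 9 TLR4, 3 complement, 4 secreted and 8 partner genes rose, and 8 other receptor and 3 partner genes fell. Under median-of-ratios scaling of these 4 libraries, 1782 rose (15.2%) and 1931 fell (16.5%). In the lists 2 TLR4, 2 complement, 2 secreted and 6 partner genes rose, and 4 TLR4, 8 other receptor, 9 secreted and 5 partner genes fell. Removing acinar genes from these 4 libraries, an alternative chosen after seeing the data, gave 2340 risen (20%) and 1751 fallen (15%). In the lists 3 TLR4, 2 complement, 4 secreted and 6 partner genes rose, and 2 TLR4, 8 other receptor, 8 secreted and 3 partner genes fell. Over all 5 libraries, median-of-ratios scaling gave 312 risen (2.65%) and 1090 fallen (9.25%). Removal of acinar genes gave 328 risen (2.79%) and 1035 fallen (8.81%). Under both, 0 other receptor genes rose and 2 partner genes fell.

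With a mean of at least 5, 315 of 7839 genes fell (4.02%), and fewer members of each list were tested. In that setting 0 other receptor and 0 complement genes rose. Those that fell were 0 TLR4, 0 other receptor, 5 complement, 3 secreted, 0 partner and 16 leukocyte genes. With no filter 1729 of 16887 genes fell (10.2%), and more members of each list were tested. Among them were 3 of 35 TLR4, 16 of 24 other receptor, 10 of 24 secreted and 6 of 23 partner genes.

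No effect shared by libraries of the same replicate number was seen. The difference of library 1 from 2 in one group had a correlation of -0.0237 across 11769 genes with that in the other. This value cannot tell whether libraries of the same number came from 1 animal or sort, which the labels do not give. With the replicate number as a block, 5325 of 11769 genes rose (45.2%) and 1492 fell (12.7%). In the lists 9 TLR4, 4 complement, 4 secreted and 8 partner genes rose, and 2 partner genes fell. Library 3 has no partner, so this fit compares the other 4. Its log2 differences equal those found without library 3 and are no separate check. The block leaves little spread to measure per gene, so these counts rest mostly on the variance that limma shares over genes.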

Other observations

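Markers of other cell types were also measured in these libraries. The summed level of 20 endothelial markers was 1138 and 1061 in CD133(positive)CD71(negative) and 335, 218 and 151 in CD133(high)CD71(low). For 20 mesenchymal and stellate markers it was 709 and 737 against 429, 390 and 316. For 16 endocrine genes it was 1882 and 1709 against 1600, 1861 and 604, with overlapping groups and library 3 lowest.

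Some pairs of genes with like roles went apart within a library. The pairs were picked with the levels of their genes in view, so their ratios are descriptions and nothing is read from them. Wfdc2 was 8.28 and 5.77 times as high as Slpi in CD133(positive)CD71(negative) and 1303, 560 and 357 times in CD133(high)CD71(low). C3 was 0.604 and 0.514 times as high as C1qa, against 10.4, 10.4 and 17.8 times. Lcn2 was 0.896 and 1.26 times as high as the neutrophil gene S100a9, against 227, 48.2 and 125 times. Levels of Slpi and S100a9 below 1 in CD133(high)CD71(low) make those ratios imprecise.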
